A study of Mus musculus with 6 samples.

Results

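Genes of the major histocompatibility complex (MHC) and of antigen processing were examined in organoids of the mouse small intestine, cultured with MMK-1 or with vehicle. The set held 37 of the 21397 genes of the expression table: the 22 protein-coding genes whose symbol starts with H2-, and 15 genes named for their place in the pathway (B2m, Tap1, Tap2, Tapbp, Tapbpl, Psmb8, Psmb9, Psmb10, Psme1, Psme2, Erap1, Nlrc5, Ciita, Cd74 and Cd1d1). The rule used names only and no measured value. Of the H2- genes 16 belong to class I and 6 to class II, namely H2-Aa, H2-Ab1, H2-Eb1, H2-DMa, H2-DMb1 and H2-Oa.

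Organoids were grown from small intestinal crypts of adult Fpr2f/f mice, which carry a floxed Fpr2 allele and no Cre, so that both groups share a genotype in which the gene is not deleted. The FPR2 agonist MMK-1, a synthetic peptide, was given at 1 μmol/L until day 5, and control organoids received 0.1% DMSO, the vehicle. For these samples the labels give 1 mM as the treatment but 1 μM in the protocol. RNA was sequenced from 3 control and 3 MMK-1 libraries, each from pooled organoids of several mice. The study describes its experiments in general as independent, but nothing in the labels says that these replicates were separate cultures, so p-values measure the spread between these libraries, which may be technical. The comparison asks which genes change in organoids when MMK-1 is present.

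Class I molecules are a heavy chain, encoded by H2-K1, H2-D1 and the nonclassical H2-Q, H2-T and H2-M genes, bound to β2-microglobulin (B2m), and they display peptides from the cytosol to CD8 T cells and natural killer cells. The peptides are cut by the proteasome, carried into the endoplasmic reticulum by the TAP1–TAP2 transporter, trimmed by ERAP1 and loaded with the help of tapasin (Tapbp). Class II molecules display peptides from endosomes to CD4 T cells, with Cd74 as their invariant chain and H2-DM as peptide editor. NLRC5 is the main transactivator of class I genes and CIITA that of class II genes, and interferon raises both pathways. Intestinal epithelial cells carry class I constitutively, whereas class II in the epithelium depends largely on interferon-γ.

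Sequences upstream of the RefSeq start sites are shown for H2-T3, H2-Q2 and H2-T23, abundant nonclassical class I genes that fell at a fold change of at least 2, for H2-K1, H2-D1 and H2-Q10, whose stretches are close relatives, and for B2m. Each line gives 120 bases, from 180 to 61 bases before the start, 5′ to 3′ on the strand of the gene, on GRCm38.p6. Capitals mark matches, on either strand, to GAAANNGAA (interferon-stimulated response element core), GTTTCACTT (class I interferon response sequence) or GGGGATTCC (the κB part of enhancer A).
H2-T3 (chr17:36190212-36190331, minus strand): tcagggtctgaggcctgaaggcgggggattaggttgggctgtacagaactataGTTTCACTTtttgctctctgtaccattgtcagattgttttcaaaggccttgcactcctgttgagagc
H2-Q2 (chr17:35342127-35342246, plus strand): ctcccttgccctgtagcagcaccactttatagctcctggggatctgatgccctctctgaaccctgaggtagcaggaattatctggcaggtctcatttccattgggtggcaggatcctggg
H2-T23 (chr17:36032762-36032881, minus strand): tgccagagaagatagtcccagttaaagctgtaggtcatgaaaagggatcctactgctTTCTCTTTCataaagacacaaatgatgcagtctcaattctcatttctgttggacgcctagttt
H2-K1 (chr17:34000408-34000527, minus strand): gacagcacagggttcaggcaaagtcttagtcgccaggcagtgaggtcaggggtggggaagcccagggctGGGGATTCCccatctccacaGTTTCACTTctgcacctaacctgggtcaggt
H2-D1 (chr17:35262914-35263033, plus strand): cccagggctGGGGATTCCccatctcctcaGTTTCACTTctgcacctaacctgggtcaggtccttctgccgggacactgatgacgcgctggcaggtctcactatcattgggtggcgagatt
H2-Q10 (chr17:35469909-35470028, plus strand): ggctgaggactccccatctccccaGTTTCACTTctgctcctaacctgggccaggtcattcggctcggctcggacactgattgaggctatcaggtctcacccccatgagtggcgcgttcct
B2m (chr2:122147507-122147626, plus strand): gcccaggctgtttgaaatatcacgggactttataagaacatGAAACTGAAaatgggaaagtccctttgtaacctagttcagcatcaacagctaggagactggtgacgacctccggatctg

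RefSeq promoters, 250 bases before to 50 after the start, were matched for 27 of the 37 genes. GTTTCACTT was found in 9 of the 27 (H2-K1, H2-D1, H2-M3, H2-Q4, H2-Q6, H2-Q7, H2-Q10, H2-T3 and H2-T22), against 0.399% of all 32851 promoters. GGGGATTCC was found in 4 of the 27 (H2-K1, H2-D1, H2-Q6 and H2-Q7), against 0.25% of all. GAAANNGAA was found in 5 (B2m, Erap1, H2-T22, H2-T23 and Psme1), against 8.56%, and H2-T22 alone among the 27 held both interferon motifs. The 11 bases of enhancer A in H2-K1 that start at the first G of GGGGATTCC were the same in H2-D1 and H2-Q6, and differed by G2A and T6C in H2-Q10 and by C8T in H2-Q4, counted from 1 at that G with the base of H2-K1 first. A match is a description of the letters and not evidence that a factor binds there.

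The upstream region shared by Tap1 and Psmb9 is shown because both genes fell. The genes start 225 bases apart in RefSeq and run away from each other, Tap1 on the plus and Psmb9 on the minus strand. These bases, on the plus strand of GRCm38.p6, hold no match to the 3 motifs.
Tap1–Psmb9 (chr17:34187331-34187555): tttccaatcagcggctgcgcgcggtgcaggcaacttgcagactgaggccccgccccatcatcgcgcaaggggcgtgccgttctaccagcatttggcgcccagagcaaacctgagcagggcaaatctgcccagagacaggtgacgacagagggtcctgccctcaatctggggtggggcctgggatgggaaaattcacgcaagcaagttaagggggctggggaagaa

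Values are FPKM, fragments on a gene scaled by its length and by the library total, as deposited. Library totals were 35512739 to 37537463 fragments, recovered from the FPKM values. Epithelial genes were abundant (Epcam at 392 ± 1.79 FPKM in control libraries, SD, n = 3), whereas the dendritic cell marker Itgax was listed at 0 in every library and the pan-leukocyte gene Ptprc had a mean of 0.00757 FPKM in control and 0.00311 in MMK-1 libraries. Of the leukocyte markers, Cd68 (3.17 FPKM in control) and Itgam (2.36 FPKM) were the highest. Changes are differences of log2(FPKM + 1), MMK-1 minus control, with their SE from limma, and p was adjusted by Benjamini-Hochberg over the 10551 genes with a mean of at least 1 FPKM. Most genes changed in these organoids, and the median change over all tested genes was 0.13. With each library divided by its upper quartile the median was -0.0047, so changes of the 37 genes are also given on that scale where it alters a call.

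Of the 37 genes, 21 passed the filter on low values, and among these MMK-1 lowered 16 and raised 3 (adjusted p no higher than 0.05). Over all tested genes 24.7% were lower and 48.5% higher by this measure. Values of the groups did not overlap for the same 19 genes, in which 16 were lower and 3 higher, beside 26.3% and 50.5% of all tested genes. With upper-quartile scaling 18 of the 21 were lower and 1 higher, beside 37.1% and 34.7% of all genes. The higher gene was H2-T-ps, which also counts among the 3 and passed the filter only through the MMK-1 group. At a fold change of at least 2 with p of at most 0.05, 5 genes were lower (H2-T3, H2-Q2, H2-T23, H2-Q1 and Tap1) and 0 higher, beside 3.65% and 3.39% of all tested genes. B2m joined them with upper-quartile scaling, which gave 6 lower, beside 4.65% of all genes. The 16 genes under the filter were all 8 of the class II group (the 6 H2- genes with Cd74 and Ciita), Cd1d1, Nlrc5 and 6 class I genes.

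**Figure D1:**
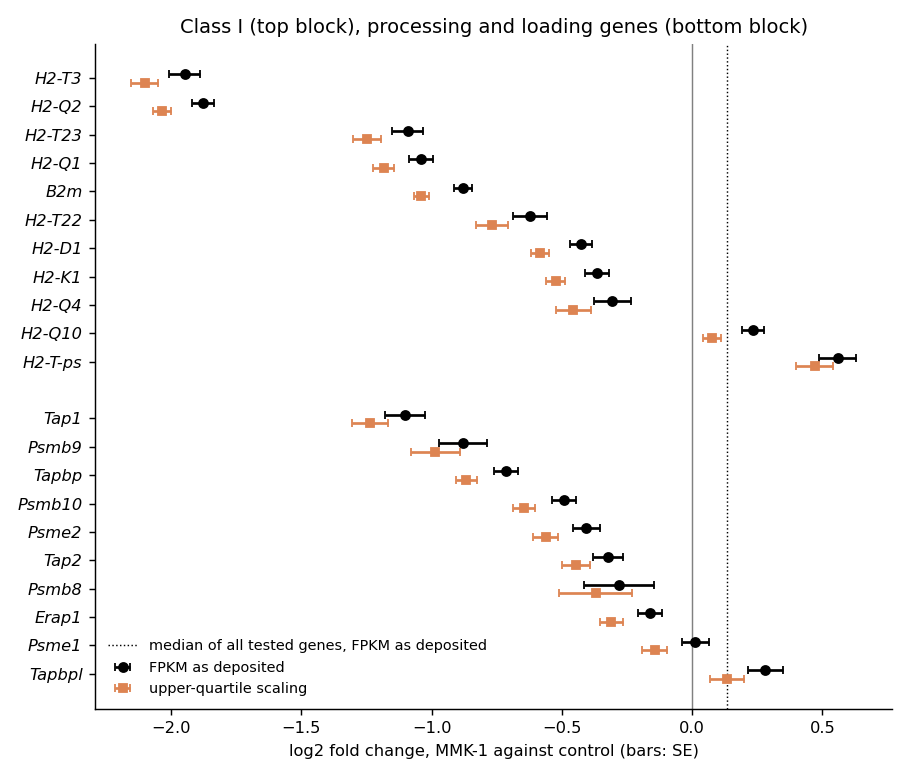
Change with MMK-1 (log2 fold change on the log2(FPKM + 1) scale, x axis) of the 21 genes that passed the filter, class I genes above and processing and loading genes below. Circles are FPKM as deposited, squares are upper-quartile scaling, bars are SE and the dotted line is the median of all tested genes. H2-T3 and H2-Q2 lie farthest to the left, and H2-T-ps, H2-Q10 and Tapbpl lie to the right of 0 on both scales.

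Class I transcripts were lower in MMK-1-treated organoids, and the size of the fall differed greatly between genes. Of the 11 class I genes tested, 9 fell and 2 rose, with a median change of -0.62 beside 0.13 for all tested genes. H2-T-ps, among the 2 that rose, passed the filter on low values only through the MMK-1 group. The summed FPKM of the 16 class I H2- genes was 902, 904 and 907 without and 587, 584 and 638 with MMK-1. MMK-1 replicate 3 had the highest sum of its group, and the groups did not overlap.

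B2m, the light chain that every class I molecule needs, had 624, 636 and 643 FPKM in control libraries and 346, 341 and 346 FPKM in MMK-1 libraries. All MMK-1 libraries lay far below all control libraries. The mean was 1.84 times as high in control (change -0.88, SE 0.035, adjusted p = 1.07e-07).

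H2-K1, the classical heavy chain K, had 313, 319 and 320 FPKM in control and 239, 239 and 262 FPKM in MMK-1 libraries. H2-D1, the classical heavy chain D, had 170, 172 and 174 FPKM in control and 124, 125 and 134 FPKM in MMK-1 libraries. For both genes MMK-1 replicate 3 lay nearest to the controls, and the groups did not overlap. The changes were -0.36 (SE 0.045, adjusted p = 0.000105) for H2-K1 and -0.43 (SE 0.042, adjusted p = 2.36e-05) for H2-D1. Within libraries, the FPKM of B2m was 1.30 ± 0.00518 times the sum of H2-K1 and H2-D1 in control and 0.921 ± 0.0418 times in MMK-1 libraries (SD, n = 3 each, exact two-sided permutation p = 0.1, the smallest that 3 against 3 libraries can give).

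Within the genes that passed the filter on low values, the largest falls were in nonclassical class I genes. H2-T3, which encodes the thymus leukaemia antigen, a class I-like molecule of the small intestinal epithelium that binds CD8αα, had 67.5, 66.0 and 63.2 FPKM in control and 15.3, 15.8 and 17.7 FPKM in MMK-1 libraries. The mean was 4.03 times as high in control (change -1.95, SE 0.059, adjusted p = 2.53e-08). H2-Q2, a Qa-region heavy chain gene, had 132, 129 and 128 FPKM in control and 34.0, 33.3 and 36.2 FPKM in MMK-1 libraries. The mean was 3.75 times as high in control (change -1.88, SE 0.043, adjusted p = 6.08e-09). Neither gene came near to overlap between the groups.

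H2-T23, which encodes Qa-1, the ligand of the natural killer receptor CD94–NKG2A, had 77.4, 77.9 and 80.3 FPKM in control and 34.4, 34.8 and 40.0 FPKM in MMK-1 libraries. The change was -1.09 (SE 0.060, adjusted p = 7.11e-07), and MMK-1 replicate 3 was again the highest of its group. H2-Q1 had 15.1, 14.8 and 15.0 FPKM in control and 6.65, 6.52 and 7.13 FPKM in MMK-1 libraries, a change of -1.04 (SE 0.047, adjusted p = 2.11e-07). H2-Q1 shares 150-base stretches with H2-Q2 and another gene for 2.69% of the windows of its GENCODE transcripts, and how fragments common to such relatives were assigned is not given in the sources used here. H2-T22, a ligand of some γδ T cell receptors, and H2-Q4 fell less, with changes of -0.62 (SE 0.066, adjusted p = 3.57e-05) and -0.31 (SE 0.069, adjusted p = 0.00351).

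H2-Q10 and H2-T-ps, named after their values were seen, were the 2 class I genes that rose. H2-Q10, which encodes a secreted class I molecule best known from liver, had 91.8, 90.0 and 92.9 FPKM in control and 107, 105 and 113 FPKM in MMK-1 libraries (change 0.23, SE 0.042, adjusted p = 0.000909). With upper-quartile scaling its change was 0.08 and the call was lost (adjusted p = 0.0714). H2-Q10 shares 3.43% of its 150-base windows with 2 other genes, mostly H2-Q7, so the limit on fragment assignment given for H2-Q1 holds for it too. H2-T-ps had 0.953, 0.723 and 0.996 FPKM in control and 1.77, 1.81 and 1.75 FPKM in MMK-1 libraries (change 0.56, SE 0.071, adjusted p = 0.000122), and GENCODE lists it as an unprocessed pseudogene although the table types it as protein-coding. Its control mean was 0.891 FPKM, so it passed the filter through the MMK-1 group (1.78 FPKM).

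Ratios within a library do not depend on its scaling, and they place the class I genes against each other. H2-T3 was 20.7 ± 0.901 FPKM per 100 FPKM of H2-K1 in control and 6.60 ± 0.191 in MMK-1 libraries. H2-Q2 was 40.8 ± 1.15 per 100 of H2-K1 in control and 14.0 ± 0.208 in MMK-1 libraries. H2-T23 went from 24.7 ± 0.381 to 14.7 ± 0.486 per 100 of H2-K1, and H2-Q10 from 28.9 ± 0.604 to 43.8 ± 0.760. H2-K1 made up 35.1% ± 0.341 of the summed FPKM of the 16 class I H2- genes, B2m not included, in control and 40.9% ± 0.159 in MMK-1 libraries. Each ratio had groups that did not overlap (SD, n = 3; exact permutation p = 0.1 for each of the 11 ratios computed, and 0.1 after Benjamini-Hochberg adjustment).

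The order of the class I levels per length also differed. In control libraries it ran from B2m through H2-K1, H2-D1, H2-Q2, H2-Q10, H2-T23, H2-T3, H2-Q4, H2-Q1 and H2-T22 to H2-T-ps, with no overlap between neighbours. In MMK-1 libraries H2-Q10 (108 ± 4.35 FPKM) stood directly below H2-D1 (128 ± 5.44 FPKM). H2-T23 (36.4 ± 3.17 FPKM) and H2-Q2 (34.5 ± 1.53 FPKM) overlapped there, as did H2-T3 (16.3 ± 1.29 FPKM) and H2-Q4 (16.0 ± 1.61 FPKM). H2-T22 (8.24 ± 0.752 FPKM) stood above H2-Q1 (6.77 ± 0.318 FPKM) with no overlap, the reverse of their order in control.

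**Figure D2:**
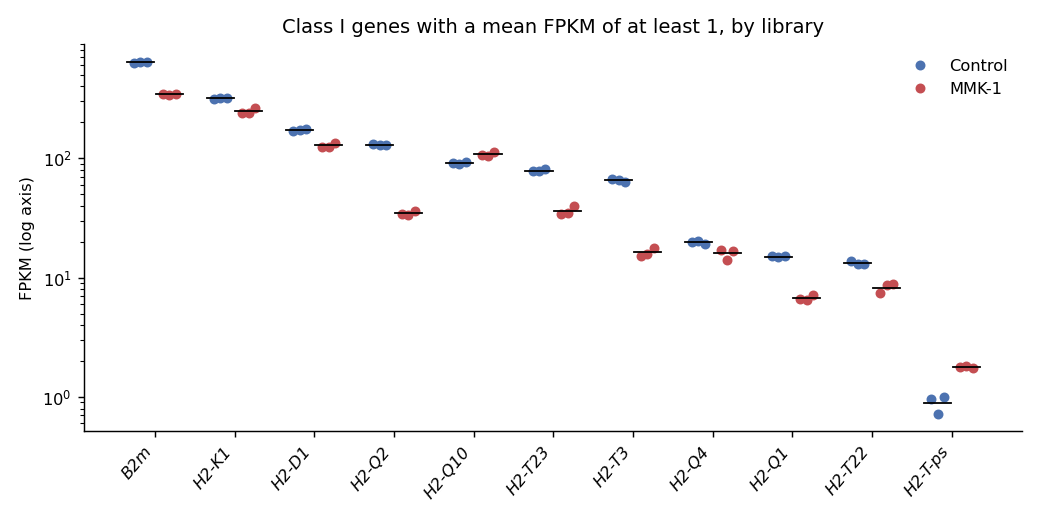
FPKM (y axis, log scale) of the 11 class I genes with a mean of at least 1 FPKM, in the 3 control and 3 MMK-1 libraries. Points are libraries and black lines are group means, and all genes but H2-Q10 and H2-T-ps have their MMK-1 points below their control points, with the widest gaps at H2-Q2 and H2-T3.

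The 6 class I genes under the filter were H2-M2, H2-M3, H2-Q6, H2-Q7, H2-Q9 and H2-T24. H2-T24 was the one with groups that did not overlap, and is named for that: it had 35, 26 and 23 fragments in control and 0, 1 and 2 in MMK-1 libraries, a ratio of control to MMK-1 of 27.1 after division by the library totals (95% exact interval of counting error 8.95 to 134). Fitted without the filter, its adjusted p was 0.000633. H2-M3, which presents N-formylated peptides, had 35, 27 and 37 fragments in control and 23, 36 and 45 in MMK-1 libraries, and its change without the filter was 0.03 (adjusted p = 0.774). The other 4 had 0 to 11 fragments in any library, and none was called without the filter.

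Genes that make and load class I peptides fell with the class I genes, but not all of them. Of the 10 tested, 7 fell (Tap1, Psmb9, Tapbp, Psmb10, Psme2, Tap2 and Erap1), Tapbpl rose, and Psmb8 and Psme1 did not pass the test. The median change was -0.36, beside 0.13 for all tested genes.

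Tap1 and Tap2 encode the subunits of the peptide transporter. Tap1 had 9.67, 8.69 and 9.32 FPKM in control and 3.42, 3.59 and 4.32 FPKM in MMK-1 libraries (change -1.10, SE 0.076, adjusted p = 2.72e-06). Tap2 had 3.78, 4.19 and 4.08 FPKM in control and 3.05, 2.85 and 3.14 FPKM in MMK-1 libraries (change -0.32, SE 0.057, adjusted p = 0.000838). Within libraries, Tap1 was 2.30 ± 0.242 times Tap2 in control and 1.25 ± 0.129 times in MMK-1 libraries, with no overlap (SD, n = 3; exact permutation p = 0.1).

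Tapbp, the tapasin that holds empty class I molecules at the transporter, had 27.1, 27.4 and 29.0 FPKM in control and 16.3, 16.1 and 17.3 FPKM in MMK-1 libraries (change -0.71, SE 0.047, adjusted p = 2.17e-06). Its relative Tapbpl, a peptide editor that works away from the transporter, moved the other way, from 11.1, 10.9 and 12.7 FPKM in control to 13.8, 13.5 and 15.3 FPKM in MMK-1 libraries (change 0.28, SE 0.069, adjusted p = 0.00532). That rise was 0.13 and no longer called with upper-quartile scaling (adjusted p = 0.102). Erap1, the peptide-trimming aminopeptidase, had 15.6, 15.0 and 15.3 FPKM in control and 14.2, 13.4 and 13.2 FPKM in MMK-1 libraries (change -0.16, SE 0.045, adjusted p = 0.0104). The groups of Erap1 did not overlap, but the fall was small.

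Psmb8, Psmb9 and Psmb10 encode the catalytic subunits of the immunoproteasome, which take the places of Psmb5, Psmb6 and Psmb7 in the standard particle. Psmb9 had 3.00, 3.78 and 2.82 FPKM in control and 1.43, 1.22 and 1.18 FPKM in MMK-1 libraries (change -0.88, SE 0.091, adjusted p = 3.30e-05). Psmb10 had 33.1, 33.9 and 34.8 FPKM in control and 24.4, 22.7 and 24.4 FPKM in MMK-1 libraries (change -0.49, SE 0.045, adjusted p = 1.44e-05). Both fell with no overlap between groups. The FPKM of Psmb9 was 2.51 times as high in control, and its change passed a fold change of 2 with limma-voom on recovered fragments (-1.32) and with a pseudocount of 0.1 (-1.26), though not with the pseudocount of 1.

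Psmb8 had 1.81, 1.81 and 0.962 FPKM in control and 0.921, 1.09 and 1.14 FPKM in MMK-1 libraries. Control replicate 3 lay among the MMK-1 libraries, and the change of -0.28 was not called (SE 0.135, adjusted p = 0.0870). It was called without control replicate 3 (change -0.45, adjusted p = 0.00133) and with upper-quartile scaling (change -0.37, adjusted p = 0.0435).

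Of the standard subunits, Psmb5 rose from 83.5 ± 4.57 to 113 ± 6.87 FPKM (adjusted p = 0.000144), and Psmb7 from 75.5 ± 5.44 to 87.8 ± 3.45 FPKM (adjusted p = 0.00836, lost with upper-quartile scaling at 0.364). Psmb6 had 86.9 ± 4.93 FPKM in control and 94.1 ± 5.87 FPKM in MMK-1 libraries (adjusted p = 0.112). Of the 14 standard 20S genes, 6 rose and 3 fell, with a median change of 0.11, and with upper-quartile scaling 2 rose and 6 fell. Over all tested genes 48.5% rose and 24.7% fell, or 34.7% and 37.1% with that scaling.

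Set against the standard subunit that it replaces, each immunosubunit had lower values in all MMK-1 than in all control libraries. Psmb9 was 3.69 ± 0.569 FPKM per 100 FPKM of Psmb6 in control and 1.36 ± 0.176 in MMK-1 libraries. Psmb10 was 45.0 ± 2.15 per 100 of Psmb7 in control and 27.2 ± 1.32 in MMK-1 libraries. Psmb8 was 2.31, 2.14 and 1.10 per 100 of Psmb5 in control and 0.825, 1.01 and 0.946 in MMK-1 libraries, where control replicate 3 lay close to the MMK-1 values.

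Psme1 and Psme2 encode the α and β subunits of the PA28 activator. Psme2 had 49.7, 52.5 and 56.0 FPKM in control and 38.8, 38.9 and 40.9 FPKM in MMK-1 libraries (change -0.41, SE 0.051, adjusted p = 0.000116), and 12.1% of its 150-base windows are shared with Psme2b. Psme1 had 70.1, 63.8 and 71.6 FPKM in control and 66.7, 69.1 and 71.3 FPKM in MMK-1 libraries, with a change of 0.01 (SE 0.053, adjusted p = 0.838) that became -0.14 and was called with upper-quartile scaling (adjusted p = 0.0279). Psme2 was 77.1 ± 5.82 per 100 FPKM of Psme1 in control and 57.2 ± 0.964 in MMK-1 libraries, with no overlap. Psme3 and Psme4, which encode activators of the proteasome that are not part of PA28αβ, both rose, from 33.5 ± 1.25 to 45.8 ± 1.95 FPKM and from 12.8 ± 0.475 to 19.5 ± 0.403 FPKM (adjusted p = 4.07e-05 and 5.54e-06).

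**Figure D3:**
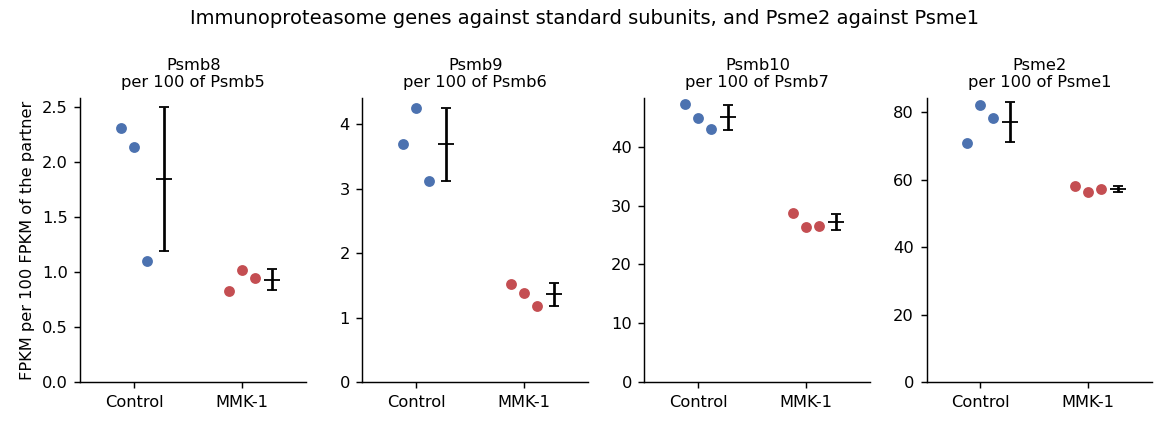
FPKM of Psmb8, Psmb9 and Psmb10 per 100 FPKM of the standard subunit each replaces, and of Psme2 per 100 FPKM of Psme1 (y axes), by library. Points are libraries, dashes are means and bars are SD (n = 3). In each panel the 3 MMK-1 points lie below the 3 control points, with control replicate 3 of Psmb8 closest to them.

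Most class II genes had few fragments or none in these libraries, and 2 of the 8 genes of the class II group, H2-Ab1 and H2-DMa, were higher with MMK-1 in a fit without the filter on low values, which called 28.1% of all genes higher. None of the 8 reached a mean of 1 FPKM over the 6 libraries. The 6 class II H2- genes summed to 152, 138 and 140 fragments in control and 233, 281 and 318 fragments in MMK-1 libraries, against 65822, 66065 and 65912 fragments of the class I H2- genes in control and 39703, 40052 and 45208 in MMK-1 libraries. Most of the class II sum was H2-DMa, with 353 fragments over the control and 653 over the MMK-1 libraries.

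H2-Ab1, the β chain of the class II molecule I-A, had 31, 14 and 14 fragments in control and 44, 61 and 61 fragments in MMK-1 libraries. In FPKM these were 0.694, 0.313 and 0.314 in control and 1.04, 1.42 and 1.38 in MMK-1 libraries, with no overlap. Its partner H2-Aa, the α chain of I-A, had 1, 0 and 0 fragments in control and 0, 1 and 0 in MMK-1 libraries. H2-Ab1 was thus read with almost no H2-Aa in any library.

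H2-DMa, the α chain of the peptide editor, had 116, 121 and 116 fragments in control and 187, 217 and 249 fragments in MMK-1 libraries. Its partner H2-DMb1 had 2, 3 and 7 fragments in control and 2, 0 and 5 in MMK-1 libraries. The length of H2-DMa in the table came to 8325 bases, the longest GENCODE transcript has 2005, and its exons share 360 bases with Brd2 on the other strand. Whether fragments were counted by strand is not given in the sources used here, so fragments of Brd2 and H2-DMa may not be separated. The same limit holds for other genes whose GENCODE exons overlap a gene on the other strand, among them H2-T22 (29.4% of exon bases), Tapbp (24.9%), H2-Q4 (19.1%), Psmb8 (14.7%), Tap2 (14.1%) and Erap1 (11.5%).

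H2-Eb1, the β chain of I-E, had 1, 0 and 3 fragments in control and 0, 2 and 3 in MMK-1 libraries. H2-Oa had 1, 0 and 0 fragments in control and none in MMK-1 libraries. Cd74, the invariant chain, had 8, 1 and 5 fragments in control and 7, 6 and 3 in MMK-1 libraries, and Ciita had 0, 3 and 1 in control and 2, 1 and 1 in MMK-1 libraries. For these genes a difference was not detectable at this depth.

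Without the filter on low values, 6 of the 37 genes were higher (beside 28.1% of all 20676 genes) and 18 lower (beside 15.2%). H2-Ab1 (change 0.67, adjusted p = 0.00716) and H2-DMa (change 0.32, adjusted p = 0.00161) were the 2 class II genes called, and the median change of the 8 class II genes was 0.0044, beside 0.010 for all genes. With limma-voom on recovered fragments, which kept 4 class II genes, their median was 0.70, beside 0.17 for all genes, and the same 2 genes were called. On the log2(FPKM + 1) scale changes of such low genes are understated.

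Cd1d1, a class I-like molecule that presents lipids to NKT cells, had 18, 9 and 17 fragments in control and 24, 33 and 48 in MMK-1 libraries. Its change without the filter was 0.24 (adjusted p = 0.0312) and with limma-voom 1.29 (adjusted p = 0.0163). It shares 4.64% of its 150-base windows with Cd1d2.

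**Figure D4:**
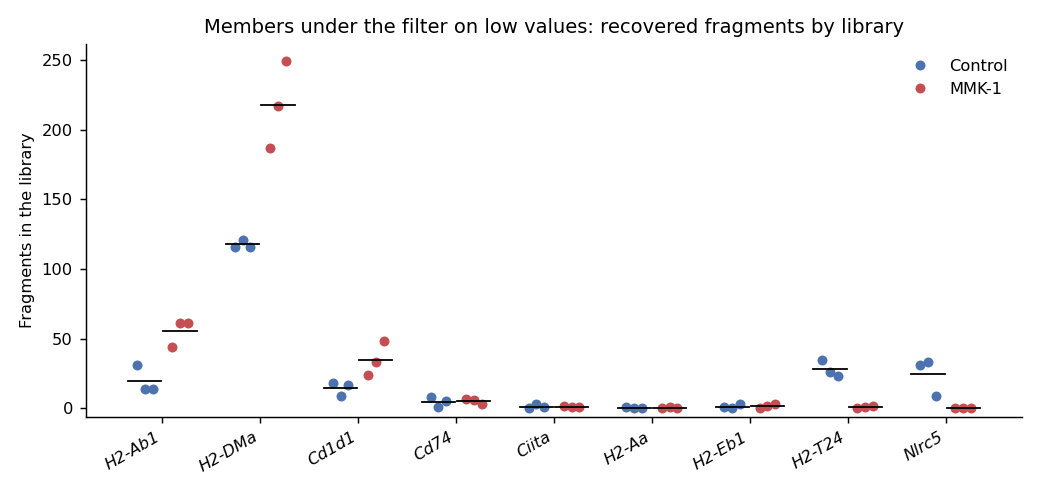
Fragments per library (y axis) of 9 genes under the filter on low values. Points are libraries and black lines are group means. H2-Ab1, H2-DMa and Cd1d1 have all MMK-1 points above their control points, H2-T24 and Nlrc5 have them at or near 0, and Cd74, Ciita, H2-Aa and H2-Eb1 stay under 10 fragments in every library.

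The class I transactivator Nlrc5 had 31, 33 and 9 fragments in control and none in any MMK-1 library. Its level was at least 23.5-fold lower with MMK-1, with 0 read as 3 fragments over the group. Even in control libraries it was low (0.105, 0.111 and 0.0304 FPKM), and its adjusted p without the filter was 0.0263. Ciita was at most 0.00818 FPKM in every library, so the 2 transactivators cannot be compared in their change.

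Interferon signal genes outside the set were examined from a list, of which 8 genes were tested, 3 fell and 3 rose, with none higher and 4 lower after upper-quartile scaling. Over all tested genes 24.7% fell and 48.5% rose, or 37.1% and 34.7% with that scaling. Irf9, a transcription factor of the type I interferon response, fell from 8.92 ± 0.0692 to 3.92 ± 0.536 FPKM (change -1.02, adjusted p = 4.85e-06). Irf1 fell slightly, from 2.69 ± 0.200 to 2.30 ± 0.135 FPKM (adjusted p = 0.0442), a call lost without the filter (adjusted p = 0.0970) and with limma-voom (adjusted p = 0.0743). Ifngr2, a chain of the interferon-γ receptor, fell from 91.7 ± 2.36 to 73.8 ± 3.75 FPKM (adjusted p = 0.000326). The genes that rose, Ifngr1, Jak1 and Irf8, all lost the call with upper-quartile scaling.

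Genes for factors that bind MHC promoters together with NLRC5 or CIITA were examined beside the shares of all tested genes. By adjusted p 48.5% of all rose and 24.7% fell, or 34.7% and 37.1% with upper-quartile scaling. Of 7 genes for the RFX, CREB and NF-Y factors, 4 rose on both scales (Rfxap, Creb1, Nfya and Nfyb) and none was called lower. Rfx5, the DNA-binding subunit of RFX, had 3.69 ± 0.0537 FPKM in control and 4.13 ± 0.207 FPKM in MMK-1 libraries (adjusted p = 0.0504). Of the 6 general chaperones of class I folding, 3 rose (Canx, Pdia3 and Uggt1) and none fell, and with upper-quartile scaling none rose and 2 fell (Hspa5 and Ganab).

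Peptidases of the class I and class II routes were read against the same shares of all genes (48.5% higher and 24.7% lower, or 34.7% and 37.1% with upper-quartile scaling). Lap3, the cytosolic leucine aminopeptidase, fell from 163 ± 0.805 to 84.1 ± 0.553 FPKM (change -0.95, adjusted p = 6.80e-08), whereas Tpp2, Npepps and Lnpep rose, out of 6 tested. With upper-quartile scaling Blmh was lower too (adjusted p = 0.00511). Among 8 tested proteases and regulators of the class II route, 3 rose and 3 fell, and with upper-quartile scaling 2 rose and 5 fell. Ctsl, the cathepsin that degrades the invariant chain in thymic epithelium, rose from 6.66 ± 0.282 to 14.5 ± 0.657 FPKM (change 1.02, adjusted p = 4.37e-07). Ctss, which does so in antigen-presenting cells, fell from 14.8 ± 0.271 to 8.60 ± 0.458 FPKM (change -0.72, adjusted p = 2.55e-06). Ctss was 2.22 ± 0.0699 times Ctsl in control and 0.594 ± 0.0567 times in MMK-1 libraries.

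Markers of epithelial cell types were read beside the shares of all tested genes. These were 48.5% higher and 24.7% lower, or 34.7% and 37.1% with upper-quartile scaling. Of 10 tested general epithelial markers 4 rose and 5 fell (3 and 6 with upper-quartile scaling). Their summed level was 6334 to 6372 FPKM in control and 4133 to 4432 FPKM in MMK-1 libraries. Of 17 tested enterocyte markers 14 fell and 2 rose (14 and 0 with upper-quartile scaling), with a summed level of 15341 to 15500 FPKM in control and 10655 to 11445 FPKM in MMK-1 libraries. All 9 tested stem cell markers rose (summed level 91.3 to 92.9 FPKM against 447 to 472 FPKM), as did all 6 tested Paneth cell markers (392 to 434 FPKM against 1275 to 1403 FPKM). Of 8 tested enteroendocrine markers 6 rose (4 with upper-quartile scaling) and none fell, of 7 tested goblet cell markers 5 rose and 2 fell (2 and 2), and no tuft cell marker passed the filter. With upper-quartile scaling the goblet cell counts lie near the shares of all tested genes. In bulk samples fewer cells of a type and less RNA per cell cannot be told apart, and the part of these markers in the change of the MHC genes was not tested.

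Leukocyte and antigen-presenting cell markers were low. Of the 24, 13 were in the table, and they summed to 5.73 to 6.72 FPKM in control and 1.98 to 3.40 FPKM in MMK-1 libraries. Most of that sum was Cd68 (3.17 ± 0.400 against 1.15 ± 0.403 FPKM) and Itgam (2.36 ± 0.0677 against 0.938 ± 0.135 FPKM), the 2 genes tested, and both fell. Itgam passed the filter on low values through the control group. The other 11 had a mean of at most 0.365 FPKM in either group. Stromal and endothelial markers summed to 5.80 to 6.37 FPKM in control and 3.75 to 5.41 FPKM in MMK-1 libraries, mostly Vim. The part of these markers was not tested.

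Of the 37 genes, 36 were placed in GENCODE vM21 on GRCm38, and 26 of these lie on chromosome 17. H2-K1 (33996017-34000347) and Tapbp (33915899-33929292) lie at the low-coordinate end of the complex, and Psmb9 (34181987-34187764), Tap1 (34187553-34197225), Psmb8 (34197721-34201454) and Tap2 (34203527-34216321) form a block within the class II region. H2-D1 (35262730-35267499), H2-Q1 (35320405-35325099), H2-Q2 (35342242-35346762) and H2-Q10 (35470089-35474563) follow, and then H2-T23 (36029773-36032855) and H2-T3 (36185572-36190287). Psmb9 and Tap1 share 212 exon bases on opposite strands. Among genes of the Q region H2-Q1 and H2-Q2 changed by -1.04 and -1.88 and H2-Q10 by 0.23. In the other block Psmb9, Tap1 and Tap2 changed by -0.88, -1.10 and -0.32, and the change of Psmb8 (-0.28) was not called.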

How the data were processed

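Per the labels and the study's methods, libraries were made with the VAHTS Universal V10 kit and sequenced as paired 150-base reads. The authors deposited FPKM values per gene. The submitters' processing notes name mm10, HISAT2, HTSeq, R 3.2.0 and DESeq2, without saying what each did for this table. Whole fragments and library totals were recovered from the FPKM values. The test was limma 3.58.1 (R 4.3.3) on log2(FPKM + 1), with genes at a mean of at least 1 FPKM and no block, and Benjamini-Hochberg adjustment over all tested genes. The scripts were tested on simulated data. Ratios were tested by exact two-sided permutation. Alternatives were upper-quartile scaling, a pseudocount of 0.1, no filter, a replicate block, limma-voom on recovered fragments (at least 10 in all) and leaving out each library. The genes of the set, the lists and the tests were chosen with earlier results of these data known. Values of each library are given, by a rule apart from the one that chose the set, for 21 genes listed by name (the 15 without Tapbpl, with H2-K1, H2-D1, H2-Aa, H2-Ab1, H2-Eb1, H2-DMa and H2-DMb1), for other H2- genes with an adjusted p of at most 0.05 and a fold change of at least 2 or with no fragments in a group, and the rest are summarised; genes outside the set are named by the same rule or where they stand opposite a member, and further names, such as H2-Q10, H2-T-ps, H2-T24, H2-M3 and Tapbpl, were chosen after their values were seen. Shared windows and overlaps used GENCODE vM21, and promoters RefSeq on GRCm38.p6. Intervals and the floor of 3 fragments cover counting error only. A gene of the interferon list is not reported here.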

Additional observations from a re-analysis of the deposited data

How the results depend on the processing

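The number of lower genes at an adjusted p of at most 0.05 stayed between 16 and 18 under every alternative, and it was 16, with 3 higher, in the fit with a replicate block. Same-numbered libraries did not deviate together (correlations of 0.025, -0.040 and 0.028). These values show no pairing by replicate number, but with 3 libraries per group they cannot exclude it. Higher genes numbered 1 with upper-quartile scaling, and 6 both without the filter and with limma-voom on recovered fragments, beside 3 as reported. At a fold change of at least 2, limma-voom gave 8 lower and 3 higher genes, beside 5 and 0. The share of all genes called was not computed for limma-voom, so its counts cannot be set against it. The class I median of -0.62 was -0.77 with upper-quartile scaling and -0.36 without the filter, which adds low genes, and -0.66 to -0.55 when libraries were left out. The median of the processing genes, -0.36, was -0.50 with upper-quartile scaling, -0.43 with a pseudocount of 0.1, -0.48 with limma-voom, and -0.41 to -0.35 when libraries were left out. No class II gene passed the filter, so that median has no value except without it or with limma-voom. Psme1 changed sign, to -0.14 with upper-quartile scaling, -0.037 without control replicate 2 and -0.01 without MMK-1 replicate 3, within a range of -0.037 to 0.045 over the libraries left out. Causes were not tested. Of 241 pairs of a gene and an alternative, 234 kept direction and call. With upper-quartile scaling and no filter, chosen after seeing the data, H2-Ab1, H2-DMa, Cd1d1, H2-T24 and Nlrc5 kept both. Counts under 10 fragments limit Cd74, Ciita, H2-Aa, H2-Eb1, H2-Oa and H2-DMb1.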

Other observations

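Surface molecules related to antigen presentation but outside the MHC set were mostly too low to test. Icosl, the ligand of the T cell co-stimulator ICOS, was the tested member of its list and fell from 6.38 ± 0.210 to 4.18 ± 0.383 FPKM (change -0.51, adjusted p = 9.64e-05). Cd274, which encodes the inhibitory ligand PD-L1, had 0.226 ± 0.0671 FPKM in control and 0.166 ± 0.0379 FPKM in MMK-1 libraries and was not tested. Fcgrt, the heavy chain of the neonatal Fc receptor, which also pairs with B2m, rose from 1.49 ± 0.284 to 2.73 ± 0.509 FPKM (change 0.58, adjusted p = 0.00180), while B2m fell. Mr1, which presents vitamin metabolites, was listed at 0 in all 3 control libraries and had a mean of 0.00733 FPKM with MMK-1.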
